A study of Canis lupus familiaris with 15 samples.

Results

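CDKN1A, CCNG1 and CDKN2C, 3 genes linked to cell cycle arrest, were followed through 3 canine mammary tumour cell lines. They were taken by gene symbol, and each had a single probe, so that 3 of 22176 probes and 3 of the 5246 genes with a symbol are described. P114 came from a primary anaplastic carcinoma of the mammary gland, CMT-U229 from a benign mixed tumour and CMT-U335 from a primary osteosarcoma of the mammary gland. Each line stands for 1 tumour, no treatment, knockout or transgene is named in the labels, and RNA was taken near confluence. The 15 cDNA arrays were hybridised with 2 dye-labelled lines at a time, 5 arrays for P114 against CMT-U335, 5 for P114 against CMT-U229 and 5 for CMT-U229 against CMT-U335, with dyes swapped on 2 or 3 arrays of each pair. Every value is therefore a log2 ratio between 2 lines, with the line named first on top, and none is a level in a single line.

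CDKN1A and CDKN2C encode inhibitors of the division cycle and CCNG1 a cyclin linked to it, as known from human and mouse cells. CDKN1A encodes p21, which binds cyclin-dependent kinases (CDKs) and the replication clamp PCNA, and its transcription is raised by DNA damage and by other signals. CCNG1 encodes cyclin G1, also raised after DNA damage, which binds regulatory subunits of the phosphatase PP2A. CDKN2C encodes p18, an inhibitor of the INK4 family that binds CDK4 and CDK6 and keeps D-type cyclins from activating them.

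Which line lies on top of a ratio is likely rather than settled, because the deposited values do not state their numerator and were read as Cy5 over Cy3, the order of the channels in the labels. Read so, the epithelial genes EPCAM, KRT18 and KRT8 were higher in the carcinoma line P114 than in CMT-U335, at log2 3.55, 3.48 and 2.46, while the fourth epithelial gene measured, TJP1, was lower (-0.35). Mesenchymal genes were mixed (median of 6, -0.07): COL1A2 (-1.39) and ZEB1 (-0.91) were lower in P114, COL3A1 (0.69) and FN1 (1.18) were higher, and VIM and DCN were not called. The markers thus did not all point one way, and the direction rests on the channel order. The other reading would turn every sign below. Of 4 osteoblast genes measured, COL1A2 was higher in the osteosarcoma line CMT-U335 than in P114, whereas SPP1 (4.12) and SPARC (0.56) were higher in P114, and ALPL was not called. Of 3 endothelial and 3 muscle markers none was called in any pair (limma; 1 muscle marker had an unadjusted p under 0.05 in P114 against CMT-U335 and 0 markers did elsewhere). Of 5 leukocyte markers only CD14 was called, higher in P114 than in CMT-U335 (0.36) and than in CMT-U229 (0.50). Averaging the apparent dye swaps described next ended the calls of COL3A1 and SPARC in P114 against CMT-U335 (adjusted p = 0.0521 and 0.102) and of CD14 in both P114 pairs (adjusted p = 0.0959 and 0.0611).

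Separate RNA samples may be fewer than arrays. All 15 arrays are labelled as biological replicates, yet the design text counts dye swaps among the repeats of each pair. Replicates 1 and 3, and 2 and 5, lay closest together in P114 against CMT-U229, while CMT-U229 against CMT-U335 had 2 and 3, and 4 and 5, closest. Each such couple had opposite dyes. The couples were picked from an earlier look at these same arrays, so the differences below are a description and no test. They were taken over 78 and 52 variable genes with a small dye effect in the other pairs, the members left out. Within couples the median absolute difference was 0.174 to 0.296 and 0.187 to 0.443. Between other arrays of the pair it was 0.587 to 1.11 and 0.504 to 1.28. The couples 1 and 3, and 4 and 5, of P114 against CMT-U335 were less clear (0.377 and 0.38 within, against 0.547 to 0.876). Correlations of the deviations from the pair mean set the couples apart in P114 against CMT-U229 (0.28 and 0.51, others at most -0.28). They did so for 2 and 3 of CMT-U229 against CMT-U335 (0.39) but not for 4 and 5 (-0.19, others up to -0.06), and not in P114 against CMT-U335 (-0.24 and -0.34, others up to 0.03). The couples are called apparent dye swaps here, and each result of the members is given with them averaged where that changes its call. For 107 other genes (those measured on the lists, the genes most alike and the neighbours), a check chosen after seeing the data, averaging kept the calls of 37 of 46 in P114 against CMT-U335, 4 of 18 in P114 against CMT-U229 and 21 of 31 in CMT-U229 against CMT-U335. Replicate 4 of P114 against CMT-U229 stood apart for CDKN1A and CDKN2C, and results that rest on it are given with and without it. Spot brightness was not analysed, so how far a probe lay above background is unknown, and precision is limited by how few arrays a pair has.

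By its mean ratios, CDKN1A was highest in P114, intermediate in CMT-U229 and lowest in CMT-U335. Against CMT-U335, P114 had CDKN1A log2 ratios of 3.08, 2.62, 3.24, 3.47 and 3.22 on replicates 1 to 5. All 5 arrays lay far above 0, between 2.62 and 3.47. In RNA of whole cultures, fewer cells that express a gene and less of its RNA per cell cannot be told apart. The mean was 3.13 ± 0.316 (SD, n = 5), an 8.74-fold difference (limma SE 0.123, adjusted p = 2.47e-05), and only 4 of 5246 genes had a higher ratio in this pair. In this pair 22.3% of genes were called at an adjusted p under 0.05, 7.89% higher and 14.4% lower in P114, and all 3 members were among them. With the swaps averaged 16% of genes were called in this pair, and all 3 members kept their calls. The arrays with P114 in Cy5 averaged 3.03 and those with P114 in Cy3 averaged 3.28, so the ratio held in both dye orders.

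Between P114 and CMT-U229 the CDKN1A log2 ratios were 2.34, 1.98, 2.52, 0.21 and 1.98. The other arrays lay close together and replicate 4 lay near 0. The mean was 1.81 ± 0.923 (SD, n = 5), or 3.50-fold higher in P114 (limma SE 0.316, adjusted p = 0.0173). Here 7.3% of genes were called, 3.32% higher and 3.98% lower, again with all 3 members among them. Without replicate 4 the mean was 2.21 (adjusted p = 0.000318), whereas without replicate 1, 2, 3 or 5 it was 1.63 to 1.76 and the call was lost (adjusted p up to 0.0756). With the apparent dye swaps averaged, the 3 values of CDKN1A were 2.43, 1.98 and 0.21, and the gene was not called (adjusted p = 0.248), in a fit that called 1.51% of all genes.

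CMT-U229 had CDKN1A log2 ratios over CMT-U335 of 1.57, 0.742, 0.796, 2.53 and 2.55. All 5 were positive, but they formed 3 steps that followed the apparent swaps: replicates 2 and 3 differed by 0.0543 and replicates 4 and 5 by 0.0127. The mean was 1.64 ± 0.886 (SD, n = 5), or 3.11-fold higher in CMT-U229 (limma SE 0.306, adjusted p = 0.0113), with 17.3% of genes called, 8.77% higher and 8.58% lower. With the swaps averaged, the values were 0.769, 2.54 and 1.57, and the adjusted p was 0.0512, in a fit that called 7.82% of genes. CDKN1A values of this pair differed far more between the couples than within them. The couples were picked from these same arrays, so this is a description and no test.

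**Figure D1:**
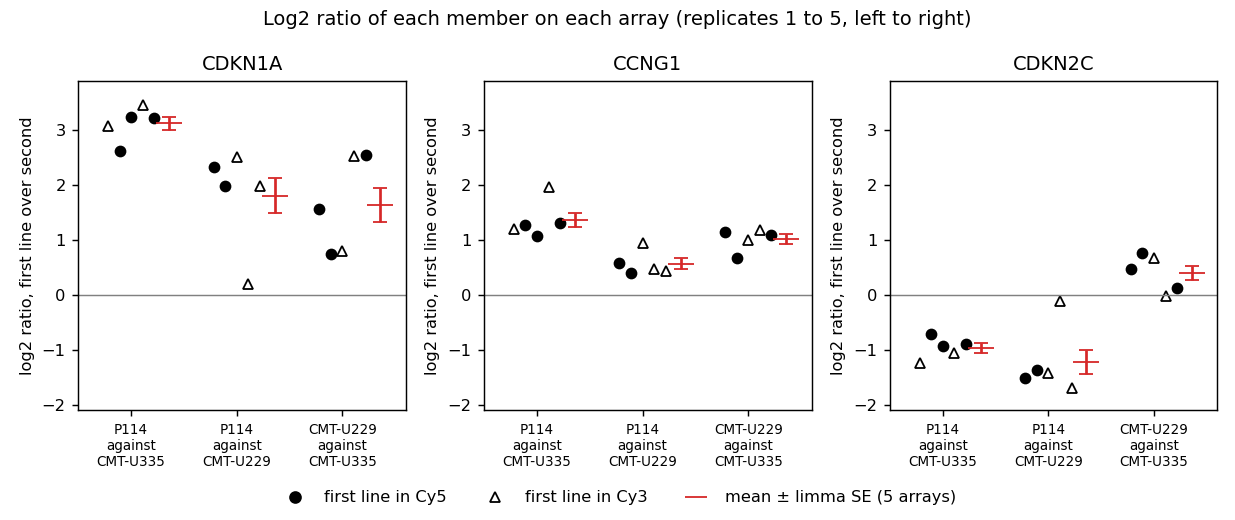
Log2 ratio of CDKN1A, CCNG1 and CDKN2C on each of 15 arrays (y axis, first line over second), in 3 panels by gene with the 3 pairs along the x axis; filled circles have the first line in Cy5, open triangles in Cy3, and red bars give the mean ± limma SE of 5 arrays. CDKN1A and CCNG1 lie above 0 on all arrays, and replicate 4 of P114 against CMT-U229 lies near 0 for CDKN1A (0.21) and CDKN2C (-0.0999).

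CCNG1 followed the same order of lines over a smaller range. In P114 against CMT-U335 its log2 ratios were 1.20, 1.27, 1.07, 1.97 and 1.32. Replicate 4 lay above the others, and all 5 were positive. The mean was 1.37 ± 0.350 (SD, n = 5), a 2.58-fold difference (limma SE 0.132, adjusted p = 0.000524), and 52 genes had a higher ratio. Without replicate 4 it was 1.22.

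CCNG1 in CMT-U229 over CMT-U335 stood at 1.15, 0.675, 1.00, 1.19 and 1.10. These arrays had the smallest SD of the gene's 3 pairs, at 1.02 ± 0.207 (SD, n = 5), or 2.03-fold higher in CMT-U229 (limma SE 0.092, adjusted p = 0.00068). With the swaps averaged CCNG1 was still called in this pair (adjusted p = 0.0117).

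Between P114 and CMT-U229 the CCNG1 log2 ratios were 0.589, 0.403, 0.946, 0.478 and 0.436. All were positive, and the mean of 0.57 ± 0.221 (SD, n = 5) was the smallest of the 3 pairs, 1.48-fold (limma SE 0.0992, adjusted p = 0.0169). The call was lost without replicate 1 (adjusted p = 0.0701) and with the swaps averaged (adjusted p = 0.103). Unlike CDKN1A, CCNG1 did not drop on replicate 4 of this pair, where it stood at 0.478 against a mean of 0.59 without that array.

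CDKN2C ran the other way in P114. Against CMT-U335 its log2 ratios were -1.24, -0.716, -0.932, -1.06 and -0.895. All 5 arrays were negative and close together, with a mean of -0.97 ± 0.195 (SD, n = 5), a 1.96-fold lower value in P114 (limma SE 0.0918, adjusted p = 0.000467). Against CMT-U229 the CDKN2C ratios in P114 were -1.51, -1.37, -1.43, -0.0999 and -1.70. Replicate 4 was again near 0 while the other 4 arrays lay between -1.70 and -1.37.

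That mean was -1.22 ± 0.639 (SD, n = 5), or 2.33-fold lower in P114 (limma SE 0.224, adjusted p = 0.0207), and 38 genes had a lower ratio. Without replicate 4 it was -1.50 (adjusted p = 0.000414). Without replicate 1, 2, 3 or 5 the CDKN2C mean was -1.18 to -1.10 and the call was lost (adjusted p up to 0.0814), as it was with the swaps averaged (adjusted p = 0.263).

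Between CMT-U229 and CMT-U335 the CDKN2C ratios were 0.475, 0.764, 0.669, -0.0236 and 0.127. All arrays but 1 were positive, and replicates 4 and 5, an apparent swap, were the lowest. The mean of 0.40 ± 0.341 (SD, n = 5) was not called (limma SE 0.130, 95% interval 0.10 to 0.71, adjusted p = 0.0807). It was called without replicate 4, at 0.51 (adjusted p = 0.0414). A difference between these 2 lines of up to 0.71 on the log2 scale lies within the interval, so CDKN2C is not shown to be equal in them.

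All 5 arrays lay on 1 side of 0 for all members in both P114 pairs and for CDKN1A and CCNG1 in the third pair. Among all genes this held for 32.5% in P114 against CMT-U335, 18.4% in P114 against CMT-U229 and 28.7% in CMT-U229 against CMT-U335. A dye effect was not called for any member in any pair (limma, smallest adjusted p = 0.625). With the first line in Cy5 and in Cy3, CCNG1 averaged 1.22 and 1.59 in P114 against CMT-U335, 0.496 and 0.62 in P114 against CMT-U229, and 0.975 and 1.10 in CMT-U229 against CMT-U335. CDKN2C kept its sign in both dye orders of each pair, with -0.848 and -1.15, -1.44 and -1.08, and 0.455 and 0.323 in the same order. CDKN1A averaged 2.16 and 1.57 in P114 against CMT-U229 and 1.62 and 1.66 in CMT-U229 against CMT-U335.

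The 3 pairs close a loop, so that the direct ratio of P114 to CMT-U335 can be set against the sum of the other 2. For CDKN1A the direct mean was 3.13 and the sum 3.44, a closure difference of -0.31 ± 0.531 (SE; 95% confidence interval -1.45 to 0.82). For CCNG1 they were 1.37 and 1.59 (-0.23 ± 0.199, interval -0.65 to 0.20), and for CDKN2C -0.97 and -0.82 (-0.15 ± 0.309, interval -0.81 to 0.51). Without replicate 4 of P114 against CMT-U229 the closure difference was -0.71 for CDKN1A, -0.25 for CCNG1 and 0.13 for CDKN2C. No departure from closure was called for a member (limma over 15 arrays, adjusted p = 1 for each, smallest unadjusted p = 0.273). None was called for any of 5246 genes either (0%), with 17 genes at an unadjusted p under 0.05. Chance alone would give far more than 17 in 5246 independent tests. The lack of calls therefore does not show that direct and summed ratios of the members agree. The intervals are wide enough that a departure of over 1 log2 unit for CDKN1A would lie within them.

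A joint fit over the 15 arrays gave the distance of each line from CMT-U335. CDKN1A stood at 3.23 ± 0.245 in P114 and 1.53 ± 0.245 in CMT-U229 (SE), with P114 above CMT-U229 by 1.70 ± 0.245. CCNG1 stood at 1.44 ± 0.0946 in P114 and 0.95 ± 0.0946 in CMT-U229, a step of 0.49 ± 0.0946 between them. The order of the estimates was P114, CMT-U229, CMT-U335 for both genes, and each step was called in this fit (limma, highest adjusted p = 0.00105). For CDKN2C the order was CMT-U229, CMT-U335, P114: P114 stood at -0.92 ± 0.142 relative to CMT-U335 and at -1.27 ± 0.142 relative to CMT-U229, both called, while CMT-U229 and CMT-U335 differed by 0.35 ± 0.142 (adjusted p = 0.078). This fit treats the 15 arrays as separate samples. With the swaps averaged in the fits by pair, no member was called in P114 against CMT-U229 (limma, adjusted p = 0.248 for CDKN1A, 0.103 for CCNG1 and 0.263 for CDKN2C). CDKN1A was not called in CMT-U229 against CMT-U335 either (adjusted p = 0.0512).

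**Figure D2:**
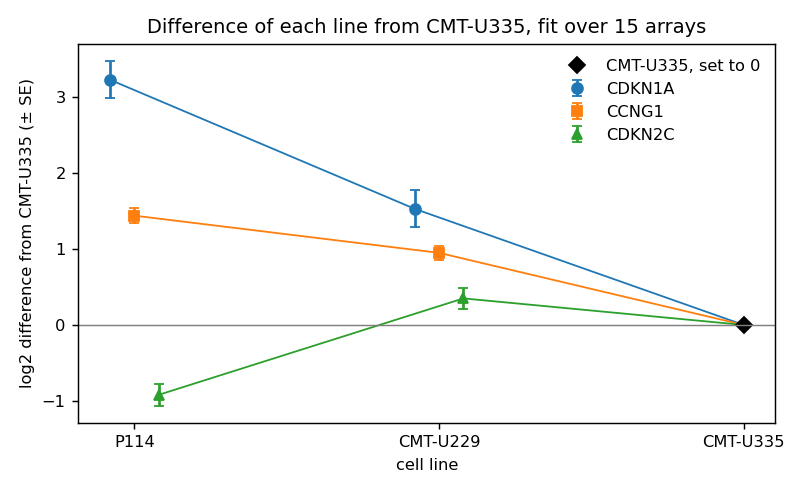
Log2 difference of P114 and CMT-U229 from CMT-U335 (x axis, cell line; y axis, log2 difference ± SE) for the 3 genes in the joint fit over 15 arrays, with CMT-U335 set to 0. CDKN1A and CCNG1 descend from P114 (3.23 and 1.44) through CMT-U229 (1.53 and 0.95), whereas CDKN2C is lowest in P114 (-0.92).

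CDKN1A and CDKN2C also deviated in opposite directions from array to array in 2 of the 3 pairs. Each array's deviation from the mean of its pair had the opposite sign for the 2 genes on 5 of 5 arrays in P114 against CMT-U229 and in CMT-U229 against CMT-U335, and on 2 of 5 in P114 against CMT-U335. In all this was 12 of 15 arrays, and the deviations correlated at r = -0.89 over the 15 arrays, a description with no test, since the arrays share lines and apparent swaps. Without replicate 4 of P114 against CMT-U229, r was -0.80 over 14 arrays. The same was not computed for other couples of genes, so the link is not shown to be particular to these 2. In P114 against CMT-U229 their means had opposite signs (1.81 and -1.22). An array with all ratios nearer 0 would thus give opposite deviations by itself there, and its part was not tested. Replicates 4 and 5 of CMT-U229 against CMT-U335 had the highest CDKN1A (2.53 and 2.55) and the lowest CDKN2C (-0.0236 and 0.127). Replicates 2 and 3 of that pair had the lowest CDKN1A (0.742 and 0.796) and the highest CDKN2C (0.764 and 0.669). CCNG1 followed these steps less closely, with r = 0.47 to CDKN1A and -0.26 to CDKN2C.

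**Figure D3:**
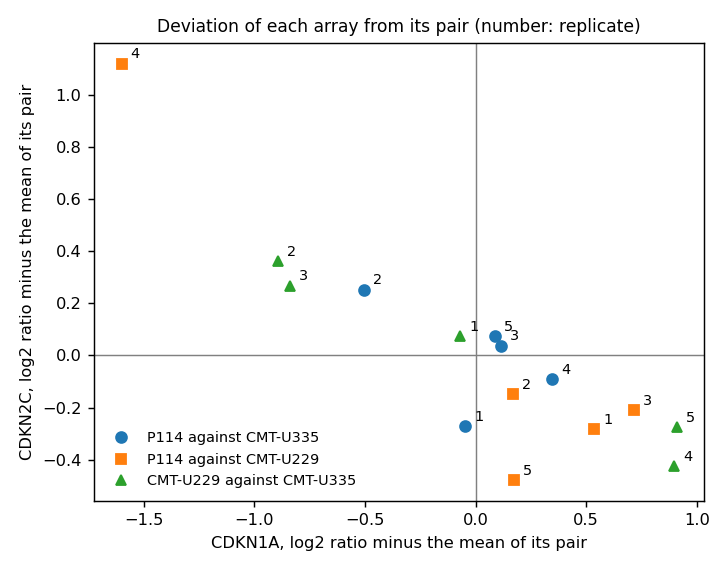
Deviation of each array from the mean of its pair, CDKN1A on the x axis and CDKN2C on the y axis, both as log2 ratios, with the pair shown by marker and the replicate by number. The 15 arrays run from upper left to lower right (r = -0.89), with replicate 4 of P114 against CMT-U229 farthest out and replicates 2 and 3, and 4 and 5, of CMT-U229 against CMT-U335 at either end of their pair.

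Genes of dividing cells were set beside these steps. Of these 9 were measured, and their median on replicate 4 of P114 against CMT-U229 was 0.608, with 8 of 9 above 0, whereas on the other 4 arrays of that pair the median ran from -1.14 to -0.153. PCNA, the clamp to which p21 binds, was 0.336 on replicate 4 and -1.97 to -0.46 on the others. FOS, an immediate early transcription factor gene, was 0.0572 on replicate 4 and 0.466 to 1.46 on the others. EPCAM and KRT18 were not reduced to near 0 there, at 1.90 and 1.85. Many other genes were reduced. Of 133 genes at least 2-fold on the mean of the other 4 arrays, 46 (34.6%) were over 2 times smaller on the log2 scale or changed sign on replicate 4. That share was the highest of the 15 arrays, with 17.1% to 26% on the other arrays of that pair. The median of the dividing genes in CMT-U229 against CMT-U335 was lowest on replicates 4 and 5 (-1.06 and -0.624), where CDKN1A was highest. P114 against CMT-U335 ran the other way. There the median was lowest on replicate 2 (-1.01), where CDKN1A was lowest (2.62). Median and CDKN1A were both highest on replicate 4 (-0.172 and 3.47). P114 against CMT-U229 also ran that way outside replicate 4. Its medians were -0.153 and -0.342 on replicates 3 and 1, where CDKN1A was 2.52 and 2.34. On replicates 2 and 5, with CDKN1A at 1.98 on each, they were -1.14 and -1.06. Over 15 arrays the deviation of the dividing-gene median correlated with those of CDKN1A (r = -0.54) and CDKN2C (r = 0.68). Without replicate 4 of P114 against CMT-U229, these were -0.22 and 0.41. The part of cell division in the ratios of the members was not tested.

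Over whole pairs, 7 of 9 genes of dividing cells fell in P114 against CMT-U335 and none rose, where 14.4% of all genes fell (median -0.77, against -0.0228 over all genes). The largest were the mitotic transcription factor FOXM1 at -1.68 ± 0.0821 (limma SE), the replication licensing inhibitor GMNN at -1.02 ± 0.228, the checkpoint gene BUB3 at -0.99 ± 0.10 and the mitotic cyclin CCNB2 at -0.85 ± 0.163. Of the 7, PCNA lost its call with the swaps averaged (limma, adjusted p = 0.0777) and the others kept theirs. None of the 9 was called in P114 against CMT-U229 (limma; 1 at an unadjusted p under 0.05; median -0.27), with PCNA at -0.83 ± 0.320 and the clamp loader subunit RFC3 at -0.54 ± 0.280. Between CMT-U229 and CMT-U335 3 fell and none rose: FOXM1 (-1.30), GMNN (-0.97) and BUB3 (-0.61), where 8.58% of all genes fell. With the swaps averaged FOXM1 was still called there, and GMNN and BUB3 were not (adjusted p = 0.121 and 0.104). In P114 against CMT-U229 FOXM1 stood at -0.17 ± 0.0806.

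Among the other 3 CDK inhibitors measured none rose in any pair. CDKN3, which encodes a phosphatase acting on CDKs, fell by 0.60 on the log2 scale in P114 against CMT-U335 (SE 0.108, adjusted p = 0.00701). CDKN1B, which encodes the p21 relative p27, stood at -0.43 ± 0.135, below 0 on all 5 arrays but not called (adjusted p = 0.0577). CDKN2D, the INK4 relative p19 of CDKN2C, stood at 0.01 ± 0.121. Of the 5 CDK inhibitors measured, 1 thus rose and 2 fell in this pair, with a median of -0.43, where 7.89% of all genes rose and 14.4% fell. Of the 5, CDKN1A (higher) and CDKN2C (lower) were called in P114 against CMT-U229, where CDKN1B, CDKN2D and CDKN3 stood between -0.36 and 0.12. Of all genes 7.3% were called in that pair. CDKN1A alone was called in CMT-U229 against CMT-U335, with CDKN1B, CDKN2D and CDKN3 between -0.22 and -0.12. That 1 of 5 is near the 17.3% of all genes called there.

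CDKN1A and CCNG1 were the only ones of 12 measured genes, on a mixed list of arrest, repair and stress response genes, called in all 3 pairs over 5 arrays. With the swaps averaged neither was: CDKN1A was called in 1 pair and CCNG1 in 2, as given above. Both genes and the list were chosen with earlier results of these data known, so these counts are a description and no test. Of the 12, 4 rose, the 2 members among them, and 1 fell in P114 against CMT-U335, with a median of 0.02. Among all genes 7.89% rose and 14.4% fell there. Beside the 2 members, the polo-like kinases PLK2 (0.63 ± 0.124, 1.55-fold) and PLK3 (0.50 ± 0.107, 1.42-fold) rose on all 5 arrays, and PCNA fell (-0.62 ± 0.161, adjusted p = 0.0294). These 3 calls were lost with the swaps averaged (adjusted p = 0.0549, 0.0763 and 0.0777). No further gene of the list was called in P114 against CMT-U229, where 7.3% of all genes were called. PLK2 stood there at 0.45 ± 0.130 (adjusted p = 0.0933) and PLK3 at -0.10 ± 0.163. The third gene called in CMT-U229 against CMT-U335 was SOD2, a mitochondrial superoxide dismutase, at 0.96 ± 0.0941. All 3 rose there, as did 8.77% of all genes. The other genes of the list, FDXR, PERP, POLH, GPX1, TIGAR and TRIAP1, were not called in any pair and stood between -0.14 and 0.21.

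**Figure D4:**
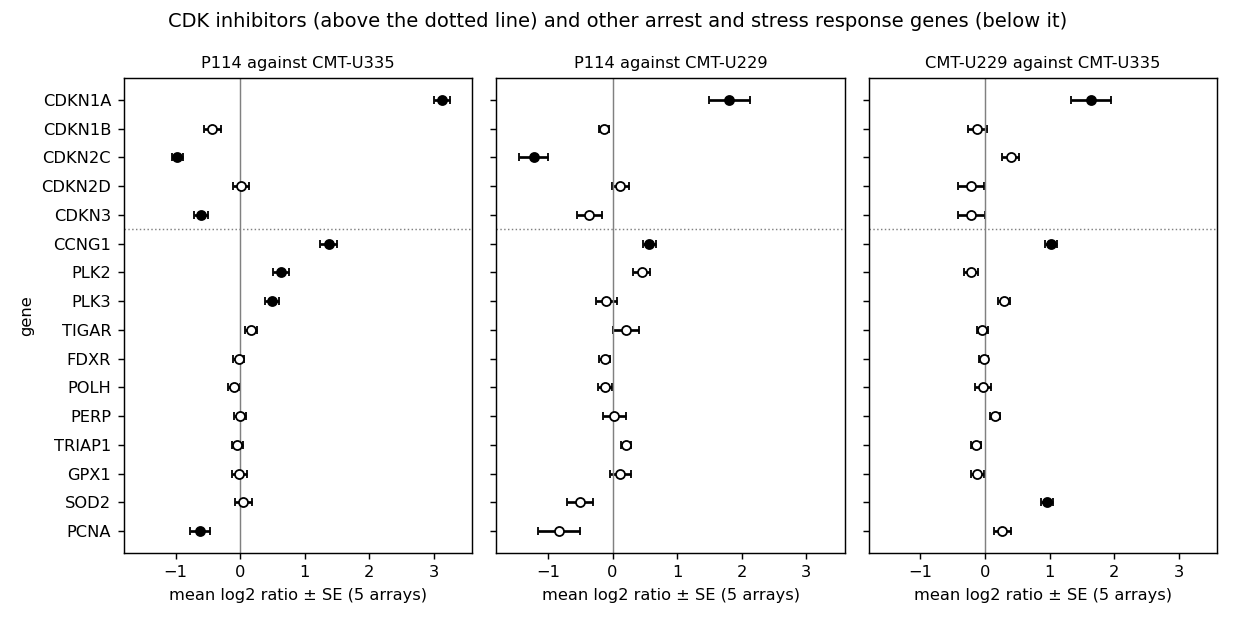
Mean log2 ratio ± limma SE (x axis) of 5 measured CDK inhibitors and 11 further arrest, repair and stress response genes (y axis) in the 3 pairs, each from 5 arrays; filled points have an adjusted p under 0.05. CDKN1A and CCNG1 are filled on the right in all 3 panels, whereas most other genes of the list lie near 0.

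Partners of the encoded proteins were looked at next. In the list of G1 cyclins, CDKs and the Rb family, 2 of 7 fell in P114 against CMT-U335 and none rose: CCNH (-0.61 ± 0.0892) and MNAT1 (-0.50 ± 0.108), both subunits of the kinase that activates CDKs. That share is near the 22.3% of all genes called, and MNAT1 lost its call with the swaps averaged (adjusted p = 0.0613). Both in P114 against CMT-U229 (CUL1 at -0.61 ± 0.542, CCNH at -0.36 ± 0.124) and in CMT-U229 against CMT-U335 (CUL1 at -0.35 ± 0.433, E2F3 at -0.29 ± 0.199) none of the 7 was called (limma; 2 and 0 at an unadjusted p under 0.05). CDK4 and CDK6, the kinases that p18 binds, were not among the genes analysed here.

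Of 9 genes for cyclin G partners and PP2A, the CCNG1 relative CCNG2 rose in P114 against CMT-U335 (0.42 ± 0.0743), and PPP2R5D, a regulatory B' subunit of PP2A, fell (-0.36 ± 0.083), so that 2 of 9 were called, near the 22.3% of all genes. Between CMT-U229 and CMT-U335 the catalytic subunit gene PPP2CB rose (0.49 ± 0.074), whereas the other catalytic subunit PPP2CA (-0.39 ± 0.0936) and PPP2R5D (-0.36 ± 0.085) fell, 3 of 9 called beside 17.3% of all genes. Only PPP2CB of these 3 was called there with the swaps averaged (adjusted p = 0.158 for PPP2CA and 0.126 for PPP2R5D). None of these 9 was called in P114 against CMT-U229 (limma; 1 at an unadjusted p under 0.05), with PPP2CA at 0.48 ± 0.162 and CCNG2 at 0.24 ± 0.109.

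Among 12 measured genes of a list of other regulators of CDKN1A, FOS rose in P114 against CMT-U335 (1.82 ± 0.257, 3.53-fold), and the TGF-beta signal carrier SMAD2 fell (-0.39 ± 0.0915). These 2 of 12 are not more than the 22.3% of all genes called, and SMAD2 lost its call with the swaps averaged (adjusted p = 0.0531). FOS alone of the 12 also rose in CMT-U229 against CMT-U335 (0.90 ± 0.177), where 17.3% of all genes were called, and it lost that call with the swaps averaged (adjusted p = 0.0825). None of the 12 was called in P114 against CMT-U229 (limma; 4 at an unadjusted p under 0.05), with HDAC2 at -0.78 ± 0.317 and FOS at 0.75 ± 0.204, above 0 on all 5 arrays (adjusted p = 0.0795).

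In a list of senescence and growth arrest genes, the secreted binding protein gene IGFBP7 rose in P114 against CMT-U335 (2.59 ± 0.151) and in CMT-U229 against CMT-U335 (3.34 ± 0.128). The antiproliferative gene BTG3 had a pattern closer to that of CDKN2C, at -0.77 ± 0.101 and -1.49 ± 0.130 in P114 against CMT-U335 and against CMT-U229, and 0.91 ± 0.105 in CMT-U229 against CMT-U335. All 3 BTG3 ratios were called. The cell cycle regulator RGCC was far lower in P114 than in CMT-U229 (-2.59 ± 0.186) and higher in CMT-U229 than in CMT-U335 (3.05 ± 0.177). Of the 5 measured genes of this list, 1 rose and 1 fell in P114 against CMT-U335, 2 fell in P114 against CMT-U229 and 3 rose in CMT-U229 against CMT-U335, beside 22.3%, 7.3% and 17.3% of all genes called in either direction. All these calls remained with the swaps averaged.

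Genes whose ratios over the 15 arrays were most like those of each member were ranked by uncentred correlation, which also takes the distance from 0 into account, among 5242 genes, as a description. DDR1, a collagen receptor kinase, was most like CDKN1A (0.978), followed by TMEM51 (0.974), APLP2 (0.953), FOS (0.952) and the chromatin protein gene HMGA1 (0.952). DDR1 stood at 1.37, 0.86 and 0.57 in P114 against CMT-U335, P114 against CMT-U229 and CMT-U229 against CMT-U335. HMGA1 stood at 1.50, 0.87 and 0.79, and was called in all 3 pairs, as was TMEM51 (1.10, 0.60 and 0.49). Both lost the call in P114 against CMT-U229 with the swaps averaged (adjusted p = 0.103 and 0.142).

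The genes most like CCNG1 were EBAG9 (0.978), ENY2 (0.977), RIDA (0.962), EIF3H (0.960) and EIF3E (0.958). All 5 lie on dog chromosome 13 in the RefSeq gene table, which holds 99 of the 5242 ranked genes, whereas CCNG1 itself lies on chromosome 4. ENY2 stood at 1.57, 0.53 and 1.25 in the same order of pairs, close to the 1.37, 0.57 and 1.02 of CCNG1.

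Most like CDKN2C were the ATP-gated channel gene P2RX4 (0.966), the nucleosome-binding gene HMGN3 (0.946), the RNA-binding protein gene ELAVL1 (0.934), FAM114A1 (0.933) and BORCS7 (0.925). HMGN3 stood at -1.28, -1.98 and 0.73, and P2RX4 at -0.61, -0.93 and 0.31. Between the members, CDKN1A and CCNG1 had the same sign on all 15 arrays (Pearson r = 0.63), and CDKN1A and CDKN2C on 4 (r = -0.59).

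Neighbouring genes on the chromosome differed between the members. Order was taken from the RefSeq table of assembly UU_Cfam_GSD_1.0, up to 2 measured genes on each side. Around CDKN1A, on chromosome 12, PPIL1 was called in P114 against CMT-U335 and was lower (-0.43 ± 0.103; adjusted p = 0.0635 with the swaps averaged). The splicing factor gene SRSF3 stood at -0.29 ± 0.130, KCTD20 at -0.12 ± 0.0999 and C12H6orf89 at -0.25 ± 0.111 in that pair. None of these neighbours was called in the other pairs, so none was called higher beside CDKN1A. DDR1 and HMGA1, among the genes most like CDKN1A over the arrays, also lie on chromosome 12.

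Around CCNG1 3 of 4 neighbours rose in P114 against CMT-U335, where 7.89% of all genes rose: NUDCD2, the adjacent gene (0.38 ± 0.0736), MAT2B, a regulatory subunit of methionine adenosyltransferase (1.00 ± 0.10), and SLU7, a splicing factor (0.64 ± 0.103). MAT2B was called in the 3 pairs in the same direction as CCNG1, at 0.48 ± 0.0762 in P114 against CMT-U229 and 0.63 ± 0.105 in CMT-U229 against CMT-U335. Those 2 calls of MAT2B were lost with the swaps averaged (adjusted p = 0.0764 and 0.0775). SLU7, with 28 table genes between it and CCNG1, rose in CMT-U229 against CMT-U335 as well (0.84 ± 0.116). PTTG1, the securin gene, stood at -0.25 ± 0.121, -0.42 ± 0.257 and 0.25 ± 0.132 and was not called.

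Around CDKN2C, on chromosome 15, the adjacent gene FAF1 was lower in P114 than in CMT-U229 (-0.47 ± 0.110, adjusted p = 0.0494; adjusted p = 0.0942 with the swaps averaged). It stood at -0.14 ± 0.0947 in P114 against CMT-U335 and 0.32 ± 0.0934 in CMT-U229 against CMT-U335, not called. RNF11, EPS15 and ELAVL4 were not called in any pair. Gene dosage was not measured here.

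**Figure D5:**
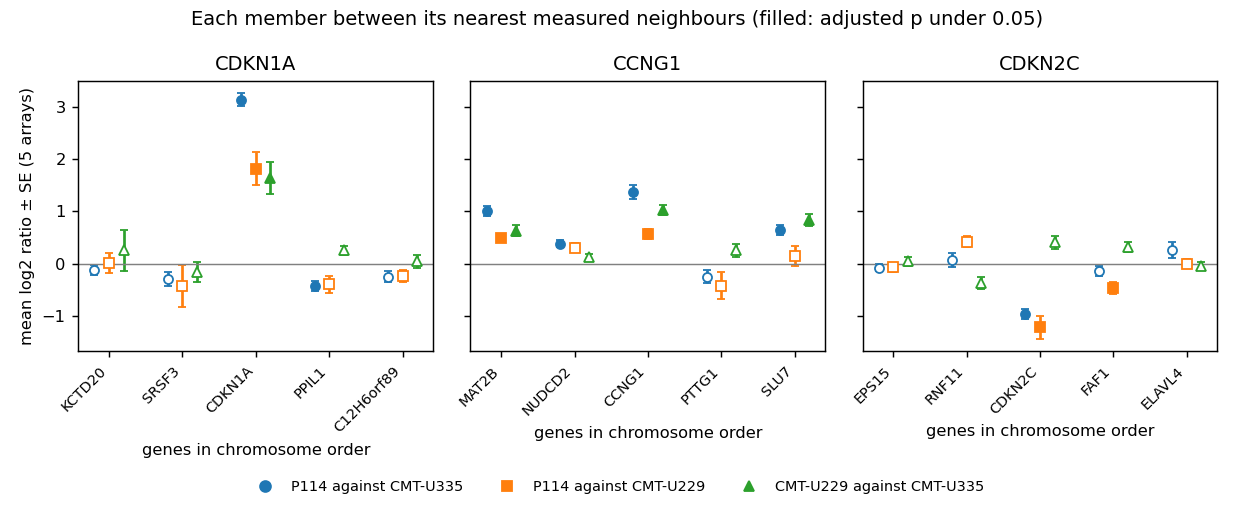
Mean log2 ratio ± limma SE (y axis, 5 arrays) of each member and of up to 2 measured genes on each side in chromosome order (x axis, not to distance), with the 3 pairs as colours and filled points for an adjusted p under 0.05. CDKN1A lies above its 4 neighbours (3.13 in P114 against CMT-U335), whereas MAT2B, 2 places before CCNG1 among measured genes, lies above 0 in all 3 pairs (1.00, 0.48 and 0.63).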

How the data were processed

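Total RNA of 3 cell lines was amplified by T7 transcription, coupled to Cy3 or Cy5 and hybridised in couples of lines to 15 cDNA arrays, per the labels' protocols. The deposited values are log2 ratios between both dyes, which the authors had normalized before deposit according to the design text; how is not given in the sources used here. Base 2 was assumed: as a natural log, the largest absolute value (12.43) would exceed the 65536-fold range of 16-bit scanning. Array medians lay from -0.00671 to 0.0134. Ratios were turned by their dyes to the order in each title. Of 22176 probes, 7694 had 1 gene symbol from the platform annotation, 7340 of them updated through the RefSeq gene table. Where a gene had several probes their mean was used, and each member had 1 probe.

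Each pair was fitted with limma 3.58.1 in R 4.3.3 (lmFit, eBayes, two-sided, mean ratio against 0), with Benjamini-Hochberg adjustment over 5246 genes. The study itself used SAM, replaced here by limma. Values on at least 3 arrays were required. Loop closure and the joint fit used all 15 arrays. The script was tested on simulated data. Named genes were the members, up to 4 called members of each list and pair or 2 as values, the 5 most alike genes, the nearest measured neighbours, and markers of cell types. Members and lists were chosen with earlier results of these data known, and the couples of apparent dye swaps were taken from an earlier look at them. No sequences of the members were used here. P-values measure the spread between arrays.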

Additional observations from a re-analysis of the deposited data

Results flagged for a closer look

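For each of 3 results, 1 value lay far from the other 4 arrays of their pair, with a gap that was more than 0.71 of the whole range (Dixon's 95% limit for 5 values). Chance flags about 1 in 20 groups, and 9 groups were tested. CDKN1A in P114 against CMT-U229 was 0.21 on replicate 4, against 1.98 to 2.52 on the other arrays. CDKN2C in the same pair was -0.0999 on the same array, against -1.70 to -1.37. CCNG1 in P114 against CMT-U335 was 1.97 on replicate 4, against 1.07 to 1.32. Among all genes, 1.6% were set apart in this way on replicate 4 of P114 against CMT-U229 and 5.76% on any array of that pair. The ratios of all genes on that array correlated at 0.45 with the mean of the other 4 and had a slope of 0.59 on it, the lowest of the 15 arrays (0.59 to 0.93).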

How the results depend on the processing

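With the apparent dye swaps averaged, CDKN1A (1.54, adjusted p = 0.248), CCNG1 (0.56, adjusted p = 0.103) and CDKN2C (-1.04, adjusted p = 0.263) lost their calls in P114 against CMT-U229, as CDKN1A did in CMT-U229 against CMT-U335 (1.62, adjusted p = 0.0512). That fit of 3 values called 79 and 410 genes in those pairs. A fit over 15 arrays called 650 genes in P114 against CMT-U229. The loop fit called 1757, 1056 and 1445 genes in P114 against CMT-U335, P114 against CMT-U229 and CMT-U229 against CMT-U335, against 1169, 383 and 910 in the fits by pair. Leaving out single arrays gave 835 to 1031, 202 to 408 and 571 to 863 genes in the same order, moving the count by over 1.5 times without replicate 1, 2, 3 or 5 of P114 against CMT-U229 (202 to 235) and without replicate 2 or 5 of CMT-U229 against CMT-U335 (586 and 571). In P114 against CMT-U229 it gave 1.63 to 2.21 for CDKN1A, 0.48 to 0.61 for CCNG1 and -1.50 to -1.10 for CDKN2C, with calls lost as given above. In CMT-U229 against CMT-U335 CDKN2C ran from 0.31 to 0.51, called without replicate 4. Closure without single arrays ran from -0.71 to -0.09 for CDKN1A (-0.71 without replicate 4 of P114 against CMT-U229, -0.09 without replicate 4 or 5 of CMT-U229 against CMT-U335), from -0.38 to -0.13 for CCNG1 and from -0.27 to 0.13 for CDKN2C (0.13 without replicate 4 of P114 against CMT-U229), never called. No call of a member changed with array medians at 0, scale normalization, filters on missing values, a dye term, the median of probes, each probe by itself, the fit over 15 arrays or the loop fit. Whether arrays of the same replicate number share RNA was not settled. Deviations of same-numbered arrays correlated at -0.248 to 0.333 (over 0.1 in 3 of 15), and 5 of 30 array comparisons were best with the same number. Best meant the highest correlation. CMT-U229 is the second line in P114 against CMT-U229 and the first in CMT-U229 against CMT-U335, so shared RNA of it would lower the correlation between them. For these 2 pairs the count therefore cannot decide. With the replicate number as a block, 1172, 515 and 920 genes were called, and CDKN1A was 3.13, 1.81 and 1.64, with no call of a member changed. Few arrays and unknown spot intensity limit what can be said of small ratios.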
